A study of Homo sapiens with 20 samples.

Results

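The core CTCF sites are the places in the genome at which a CTCF peak was listed in every one of 12 ChIP-seq libraries, with and without CTCF depletion, in a cancer cell line and in fibroblasts. They were found by merging overlapping peaks of the 2 LNCaP control siRNA lists on chromosomes 1 to 22 and X, keeping the 33377 merged sites with a peak in both lists (the LNCaP control sites), and requiring an overlap of at least 1 bp with a peak in each of the other 10 lists. In all, 1130 sites met the rule, which is 3.39% of the LNCaP control sites (Wilson 95% interval 3.20 to 3.59%, counting error only). They made up 7.61% of the 14840 sites with a peak in all 6 control lists and 36.6% of the 3091 sites that kept a peak in both LNCaP CTCF siRNA lists. The sites were selected on the deposited CTCF peak lists, so every CTCF peak value below is a description without a test, whereas sequence, position and histone marks were not used by the rule.

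CTCF was immunoprecipitated from LNCaP, a prostate cancer cell line, and from IMR90, a line of lung fibroblasts. Cells received 20 nM of a pool of non-targeting siRNAs (control siRNA) or 20 nM of a pool of CTCF siRNAs, were transfected again when they were split (stated for LNCaP and for low-cell IMR90), and were harvested at 144 h. IMR90 was profiled by a standard protocol and by a low-cell ChIP kit, and LNCaP also for the histone marks H3K4me3, found mainly at active promoters, and H3K27ac, found at active enhancers as well. Each of the 10 conditions had 2 libraries, 20 in all. The standard ChIP experiments are described as biological duplicates, but the labels do not say that the 2 libraries came from separate cultures, so that the spread between them may be technical. The level of CTCF itself was not analysed here. In the LNCaP control libraries an H3K4me3 region lay at the start of 6 and 7 of 8 prostate genes (KLK2 had none, TMPRSS2 in 1 library) and of 2 of 8 genes of other cell types, COL1A1 and TWIST1. IMR90 had no histone library, so its label was not checked. The label and title of the standard IMR90 samples give IMR90, but their culture and transfection notes name LNCaP, which bears on every standard IMR90 value below.

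CTCF is a zinc finger protein that binds a long, directional DNA motif and, with the cohesin complex, anchors chromatin loops and borders of topologically associating domains. Loops extruded by cohesin tend to stop where motifs on opposite strands point at each other. The central zinc fingers read the core of the motif, fingers towards the carboxy-terminal end contact a further element upstream of it at some sites, and methylation of CpG dinucleotides in the motif is known to reduce binding at part of the sites.

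The letters at some of the strongest, weakest and well-known core sites are printed below. Sites were ranked by the mean, over the 12 lists, of the percentile of their fold enrichment in the list, the fold enrichment being the ratio of a peak to its background that the peak caller gives and that is not scaled between libraries. Each line gives 30 bases of GRCh37 (hg19), read 5′ to 3′ on the strand of the match. The capitals mark the 14 bases that best match the CTCF core consensus, a pattern of 14 positions searched on both strands within 100 bp of the mean LNCaP control summit with up to 2 mismatches. The lower case letters are the 16 bases before it, where the upstream element lies. The first 7 belong to the highest-ranked sites, the IFI44 site to the lowest-ranked ones, and those named for HOXA7, HOXB8, KCNQ1 and CDKN1C to gene clusters known for CTCF. Named sites without a match within 2 mismatches are not printed, namely the chromosome-end sites and those at IGF2, HOXC8 and HOXA13 described below. The printed set thus does not show how common the match is.
KCNQ5 (chr6:73122036-73122065, minus): gaggttctagctctcaCCAACAGAGGGCAG
MMP2 (chr16:55499193-55499222, plus): gcttctccaaaagtggCCACCAGATGGCGC
TMEM132B (chr12:125667856-125667885, plus): gcagttccagtttcagCCACGAGATGGCAA
SLC22A8 (chr11:62791721-62791750, minus): gcagtacccgctatagCCACCAGAGGGAGC
GCM1 (chr6:53036801-53036830, plus): cagtagcagggactggCCGGGAGATGGCAG
RNF212 (chr4:1124516-1124545, plus): tcatgcgccatggctgCCACTAGATGGCAG
NCF4 (chr22:37252537-37252566, plus): ttatagcattcaacctCCTCTAGGTGGCGC
IFI44 (chr1:79305553-79305582, plus): gcttttaaagatttgtCCAGGAGGTGGCAC
HOXA7 (chr7:27200755-27200784, minus): cagtaccaaacggcggCCAGCAGATGGCAG
HOXB8 (chr17:46696106-46696135, minus): ccttttcgcagagcagCCGCTAGATGGCAC
KCNQ1 (chr11:2554167-2554196, plus): gcgggaaggcctgtagACGCCAGAGGGCGC
CDKN1C (chr11:2909780-2909809, minus): tgcagcctccatctggCCAGCAGAGGGCGC

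The core sites were strong sites in most libraries, and a single library, low-cell CTCF siRNA replicate 2, held the fewest other peaks. Their median fold enrichment was 23.6 and 26.8 in the LNCaP control libraries and 10.6 and 17.1 after CTCF siRNA. In standard IMR90 it was 24.76 and 26.05 with control siRNA and 30.8 and 29.2 with CTCF siRNA. In low-cell IMR90 it was 13.4 and 11.97 with control siRNA and 14.3 and 7.12 with CTCF siRNA. The median of all peaks of a list lay between 6.58 and 11.3, and the core median was higher in every list. The gap was smallest in LNCaP CTCF siRNA replicate 1 (10.6 against 8.82) and low-cell CTCF siRNA replicate 2 (7.12 against 6.58). In the 2 LNCaP control lists 47.6% and 51.2% of the core sites were among the top 10% of peaks. In low-cell CTCF siRNA replicate 2 the share was 13.8%.

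**Figure D1:**
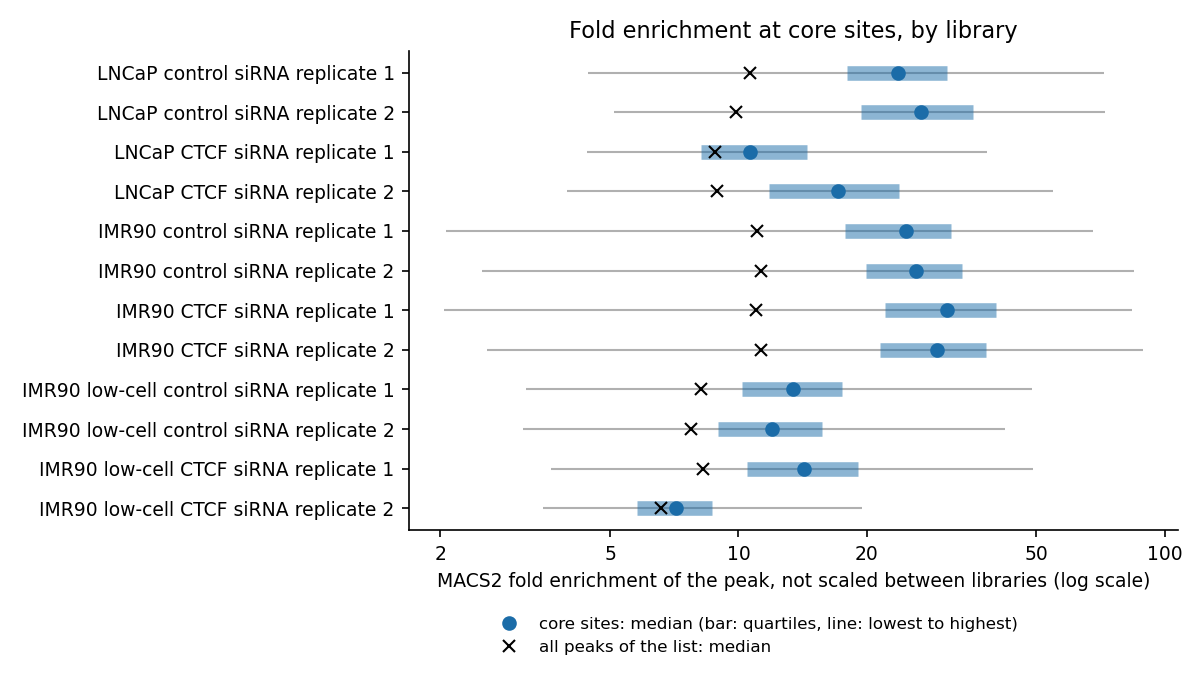
Fold enrichment of the peaks at the 1130 core sites in each of the 12 CTCF libraries, on a log scale, with the median as a point, the quartiles as a bar and the lowest to highest value as a line; crosses give the median of all peaks of the list. Low-cell CTCF siRNA replicate 2 had the lowest core median, 7.12, and IMR90 CTCF siRNA replicate 1 the highest, 30.8.

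List length differed widely, from 37969 and 46293 peaks in LNCaP control cells to 3711 and 7716 after CTCF siRNA, 35717 and 36887 in IMR90 control cells to 19177 and 18533, and 20179 and 19097 in low-cell control libraries to 5086 and 1941. Of all LNCaP control sites, 9.26% had a peak in both LNCaP CTCF siRNA lists, 45.5% in both standard IMR90 CTCF siRNA lists and 5.21% in both low-cell CTCF siRNA lists, while 72.6% had one in both standard and 46.1% in both low-cell IMR90 control lists. The core sites have all of these by rule. They formed 2.44% to 2.98% of the LNCaP control lists but 58.2% of the list of low-cell CTCF siRNA replicate 2.

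A further 1351 sites had a peak in 11 of the 12 lists, and 945 of these lacked it only in low-cell CTCF siRNA replicate 2. Another 347 lacked it only in LNCaP CTCF siRNA replicate 1 and 42 only in LNCaP CTCF siRNA replicate 2, whereas no other list was the sole gap at more than 7 sites. By the read totals of the study, LNCaP CTCF siRNA replicate 1 was the shallowest of the 4 LNCaP CTCF libraries, and the part of depth in its short list was not tested. Without low-cell CTCF siRNA replicate 2 the rule gave 2075 sites. The 945 sites just outside the limit had a median of the mean LNCaP control fold enrichment of 24.3 (quartiles 18.5 and 31.8), beside 25.01 (19.4 and 32.8) for the core sites and 12.5 (8.27 and 19.01) for all LNCaP control sites. The core sites closest to the limit lay nearest to SLC25A21 on chromosome 14, with a q-value of 0.0340 in that library, and nearest to HMCN2 on chromosome 9 and CRLF3 on chromosome 17, with 0.0310 each, under the caller's limit of 0.05. Their mean LNCaP control fold enrichment was 28.7, 39.3 and 21.9. The strongest sites just outside were stronger than these in LNCaP control cells, namely an intron of SORBS3 at chr8:22431423-22432458 with 63.9, a site near ASPG at chr14:104544104-104544826 with 63.5 and one near GTF3C5 at chr9:135897659-135898160 with 60.1. All of these 3 lacked a peak only in low-cell CTCF siRNA replicate 2. The SORBS3 site, in a gene for a cytoskeletal adaptor protein, held 60.7 and 67.02 in LNCaP with control siRNA and, with CTCF siRNA, 5.61 and 12.5, and 24.2 and 24.5, then 6.66, in the low-cell libraries. The ASPG site held 64.1 and 62.8 in LNCaP with control siRNA and, with CTCF siRNA, 22.8 and 39.6, and the GTF3C5 site, near a gene for a subunit of the RNA polymerase III factor TFIIIC, 51.6 and 68.5, then 9.69 and 20.4. In each of the 3 the LNCaP treatments did not overlap. Lower values after CTCF siRNA were the rule in LNCaP. Of the 1130 core sites, 41 and 119 were higher than in the control library of the same replicate number. How many sites lacked overlap was not counted in any experiment. Overlap or its lack at the sites named below thus does not set them apart from other core sites.

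Strength in control cells and membership went together. When the LNCaP control sites were split into 10 equal groups by mean LNCaP control fold enrichment, core sites made up 0.0899% of the weakest group, 1.56% of the sixth and 15.0% of the strongest. The strongest group held 501 core sites, 44.3% of all, and the ninth 278. Even there, most sites were not core: of the 2952 sites of the strongest group with a peak in all 6 control lists, 17.0% were.

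**Figure D2:**
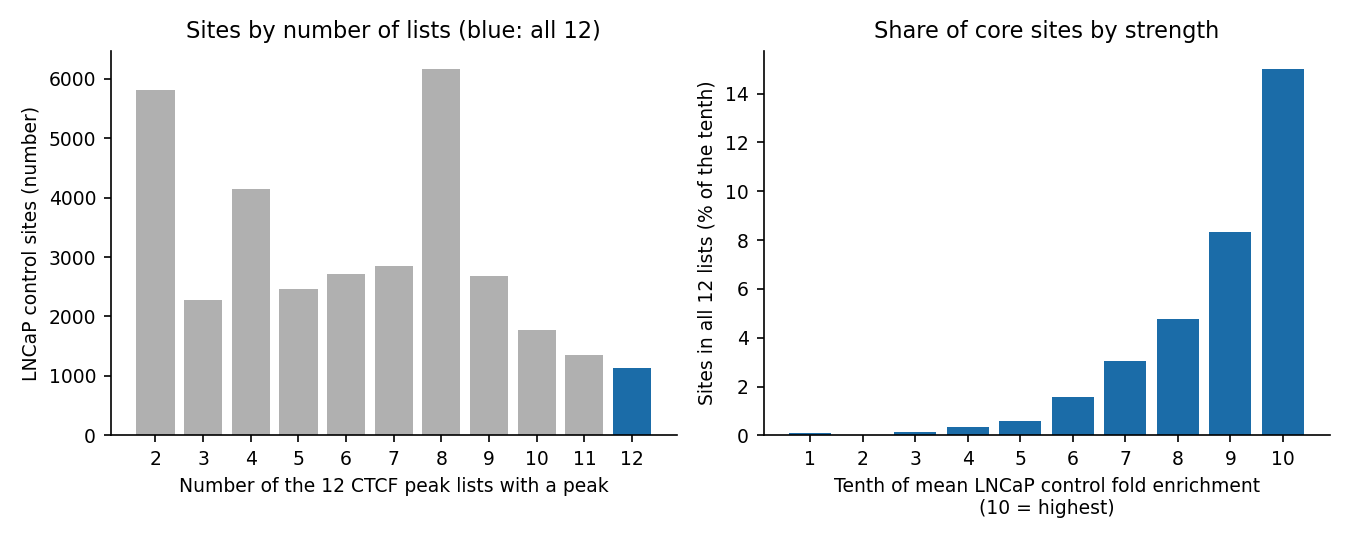
Left, number of LNCaP control sites by how many of the 12 CTCF lists held a peak there, with the 1130 core sites in blue; right, core sites as a percentage of each of 10 equal groups of sites ordered by mean LNCaP control fold enrichment. The share was under 1% in each of the 5 weaker groups and 15.0% in the strongest.

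The order of the core sites among themselves was close between replicates and differed between the standard and low-cell protocols. Across the 1130 sites, Spearman's rho between replicates of a condition ranged from 0.564 for low-cell CTCF siRNA to 0.849 for IMR90 control siRNA. LNCaP and standard IMR90 control means correlated with a rho of 0.545. Standard and low-cell IMR90 control means, labelled as the same line under the same siRNA, had a rho of 0.0234. The culture and transfection notes of the standard samples name LNCaP, as said above, and whether this bears on the 2 values was not tested. The sites of a library share its depth and base composition, and the latter moved with the values: fold enrichment correlated with GC content by 0.380 and 0.427 in the low-cell control libraries and by -0.170 and -0.0508 in the standard IMR90 control libraries. The part of base composition in the low rho was not tested. Within the standard protocol the same correlation was 0.366 in LNCaP control replicate 1 and 0.0872 in replicate 2. Control and CTCF siRNA means had a rho of 0.616 in LNCaP, 0.694 in standard IMR90 and 0.268 in low-cell IMR90. Under CTCF siRNA, LNCaP and standard IMR90 means had a rho of 0.482 and standard and low-cell IMR90 means one of 0.121.

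The site with the highest mean percentile, 99.4, lay at chr6:73121674-73122315, in an intergenic region 209452 bp from the start of KCNQ5, which encodes a potassium channel. Its fold enrichment was 39.4 and 58.5 in LNCaP with control siRNA and, with CTCF siRNA, 24.8 and 50.7. In standard IMR90 it was 52.8 and 53.1 with control siRNA and 67.9 and 63.0 with CTCF siRNA, and in the low-cell libraries 26.6 and 33.0, then 25.97 and 12.6. The ranges of the 2 treatments overlapped in LNCaP and did not in either IMR90 protocol, where they were ordered in opposite ways. No histone region of either mark overlapped it in any of the 8 histone libraries.

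The site with the second highest rank lay in an intron of MMP2, which encodes a matrix metalloproteinase made by fibroblasts, at chr16:55498937-55499460. It held 40.3 and 39.6 in LNCaP with control siRNA and, with CTCF siRNA, 21.5 and 29.9. In standard IMR90 it held 34.5 and 38.1 with control siRNA and 56.8 and 54.7 with CTCF siRNA, and in the low-cell libraries 25.5 and 19.8, then 49.0 and 19.5. The treatments did not overlap in LNCaP or in standard IMR90, again in opposite order. The value of 19.5 was the highest of any core site in low-cell CTCF siRNA replicate 2.

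The other 6 of the 8 highest-ranked sites lay 3080 bp from the start of TMEM132B, 8433 bp from SLC22A8 (a renal organic anion transporter), 23190 bp from GCM1 (a placental transcription factor), 223105 bp from MSRA (a methionine sulfoxide reductase), 17159 bp from RNF212 (a meiotic recombination factor) and 4469 bp from NCF4 (a subunit of the phagocyte NADPH oxidase). The last 2 were in introns of non-coding genes and the others intergenic, and none of the 8 was within 1000 bp of a coding gene start. The MSRA site, at chr8:9688353-9688932, had the highest single value of the core sites in LNCaP CTCF siRNA replicate 1, with 38.2, and in both standard IMR90 replicates numbered 2, with 84.9 (control siRNA) and 89.2 (CTCF siRNA). Across these 8 sites the mean LNCaP control fold enrichment ran from 31.97 at GCM1 to 64.96 at MSRA.

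The libraries differed in how these sites changed. The SLC22A8 site held 53.5 and 53.6 in LNCaP with control siRNA and, with CTCF siRNA, 30.9 and 51.1, and 57.4 and 34.9, then 70.9 and 71.2, in standard IMR90. The NCF4 site held 46.1 and 40.5, then 20.8 and 29.3, in LNCaP and 25.5 and 26.4, then 54.5 and 43.6, in standard IMR90. At both sites the values were lower after CTCF siRNA in LNCaP and higher in standard IMR90, without overlap. Most core sites went these ways: 41 and 119 of 1130 were higher after CTCF siRNA in LNCaP, and 824 and 705 in standard IMR90. The RNF212 site held 51.5 and 59.4, then 19.5 and 32.7, in LNCaP and 44.8 and 55.4, then 52.5 and 51.05, in standard IMR90, where the treatments overlapped. The GCM1 site held 30.8 and 33.1, then 24.04 and 37.8, in LNCaP, which overlapped as well. The TMEM132B site went from 37.6 and 45.1 to 27.1 and 37.4 in LNCaP and from 19.9 and 19.1 to 30.9 and 13.03 in the low-cell libraries. Of these 8 sites, RNF212 was the one with an H3K27ac region in all 4 LNCaP histone libraries, and no site had an H3K4me3 region in more than 2.

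Of the 3 lowest-ranked core sites, 2 lay at chromosome ends. The lowest mean percentile, 12.5, belonged to chr12:95288-95796, 263 bp from an assembly gap at the end of the chromosome, with values between 3.55 and 7.90 in the 12 libraries. The site at chr1:10004-10470, 183 bp from the gap at the end of chromosome 1, had 2.06 and 2.50 in IMR90 control cells, 2.04 and 2.58 after CTCF siRNA, and 13.3 and 13.6 in the low-cell control libraries. Both had 6 mismatches to the consensus, both overlapped H3K27ac regions in all 4 LNCaP libraries and H3K4me3 regions in 2. Chromosome ends share repeats, so these peaks are uncertain. In all, 19 core sites (1.68%) lay within 100000 bp of a gap of at least 10000 bp, beside 1.36% of all LNCaP control sites. The remaining site of the 3 lowest, 190087 bp from IFI44 on chromosome 1, had a match with 1 mismatch and values between 3.73 and 13.7.

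The core sites carried better matches to the CTCF consensus than other sites bound in the same control cells. A match with at most 2 mismatches was found at 93.2% of them (1053 of 1130), beside 87.6% of the 13710 other sites in all 6 control lists and 73.7% of all LNCaP control sites. With at most 1 mismatch the shares were 74.3%, 59.4% and 43.5%, and with none 33.0%, 18.9% and 11.8%. Windows of the same length 1000 bp away held a match with up to 2 mismatches at 6.37%, 5.77% and 5.23%. The 95% Wilson intervals of the core sites and of the other sites in all 6 control lists did not overlap at any of the 3 limits (at 2 mismatches 91.6 to 94.5% against 87.0 to 88.1%). Sites are not replicates, so no test was run.

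The difference was also present within groups of similar LNCaP control strength. The match in strength is coarse, as the strongest group runs from 26.5 to 67.1. Strength in the IMR90 control lists was not matched. In standard control replicate 1 the medians of core and other shared sites were 24.76 and 18.04, and in low-cell control replicate 1 13.4 and 9.02. In the strongest of the 10 groups 74.1% of the core sites and 62.3% of the other sites in all 6 control lists had a match with at most 1 mismatch, and in the sixth group 76.9% of 52 core sites and 57.6% of the others. Among core sites the share was between 73.4% and 76.9% in each of 5 groups, from the sixth to the strongest. The 1961 other sites that kept a peak in both LNCaP CTCF siRNA lists lay between the groups, with 63.6%. The 1351 sites in 11 of 12 lists had 73.0%, within the interval of the core sites (71.7 to 76.8%).

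Of 1130 core sites, 77 had no match within 2 mismatches. Of these 64 had 3 mismatches, 10 had 4 and 3 had 5 or more. The last 3 were both chromosome-end sites described above and a site 206 bp from the start of GOLM2 at chr15:44580492-44580903, whose mean LNCaP control fold enrichment was 25.1. At the other end, 36 core sites (3.19%) held 2 or more separate matches with at most 1 mismatch, beside 1.63% of the other sites in all 6 control lists.

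Among the most frequent base of each position, the largest difference between core sites and other shared sites over all strengths lay at position 13, where 54.6% and 39.9% of the matches had G, the second letter of a CpG. In the strongest group the values were closer, 49.1% and 43.4%. Among matches with at most 1 mismatch, positions 12 and 13, counted from 1 at the 5′ end of the match, read CG at 49.9% of 840 core sites (46.5 to 53.3%), 29.2% of 8144 other sites in all 6 control lists (28.3 to 30.2%) and 26.9% of all LNCaP control sites. The groups most like the core sites were nearer, with 40.1% of other sites that kept a peak in both LNCaP CTCF siRNA lists and 41.7% of sites in 11 of 12 lists. The MMP2, NCF4, KCNQ1 and CDKN1C sites printed above show it near the end of the capitals, and the KCNQ5, HOXA7 and HOXB8 sites do not. The commonest 14-base match, CCAGCAGAGGGCGC, which is that of the CDKN1C site, occurred at 27 core sites (3.21% of 840) and at 0.872% of the other group. The second, CCACCAGGTGGCGC, occurred at 22 (2.62%) and 0.688%. The 840 matches had 336 distinct forms.

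The surroundings were richer in G and C as well. Within 100 bp of the summit the median GC content was 54.5% at core sites and 49.3% at the other sites in all 6 control lists, with a median of 6 and 3 CpGs. In the strongest group the GC medians were close, 56.7% and 55.7%, while the CpG medians were 6 and 4. Sites in 11 of 12 lists had 52.2% and 5.

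The bases around the consensus were also less free to vary at the core sites. Information content, which is 0 bits at a position where all 4 bases are equally common and 2 bits where 1 base is fixed, was summed over stretches for matches with at most 1 mismatch. Over positions -20 to -8, upstream of the consensus, it was 1.961 bits at core sites and 0.684 bits at the other sites in all 6 control lists. In the strongest group it was 2.79 bits (371 matches) and 1.61 bits (1528 matches), and at sites not shared by all control lists 0.306 bits (5530 matches).

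The upstream preference was for T at position -12, found in 56.7% of core matches and 46.0% of the others, and for C at position -10, found in 53.5% and 41.4%. G at positions -17 and -16 stood at 46.0% and 46.7% of core matches, beside 38.8% and 34.5%. In the strongest group the values at positions -12 and -10 were 59.8% and 64.4% of core matches, beside 49.3% and 57.1%, while G at position -17 was at 43.9% and 44.5%, with no excess in the core sites. Positions -7 to -1 summed to 1.08 and 0.513 bits, with T at position -3 in 55.6% and 45.7%, and positions 15 to 26 after the consensus to 1.92 and 1.02 bits. The 14 consensus positions, whose content the search largely fixes, held 18.7 and 18.05 bits.

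**Figure D3:**
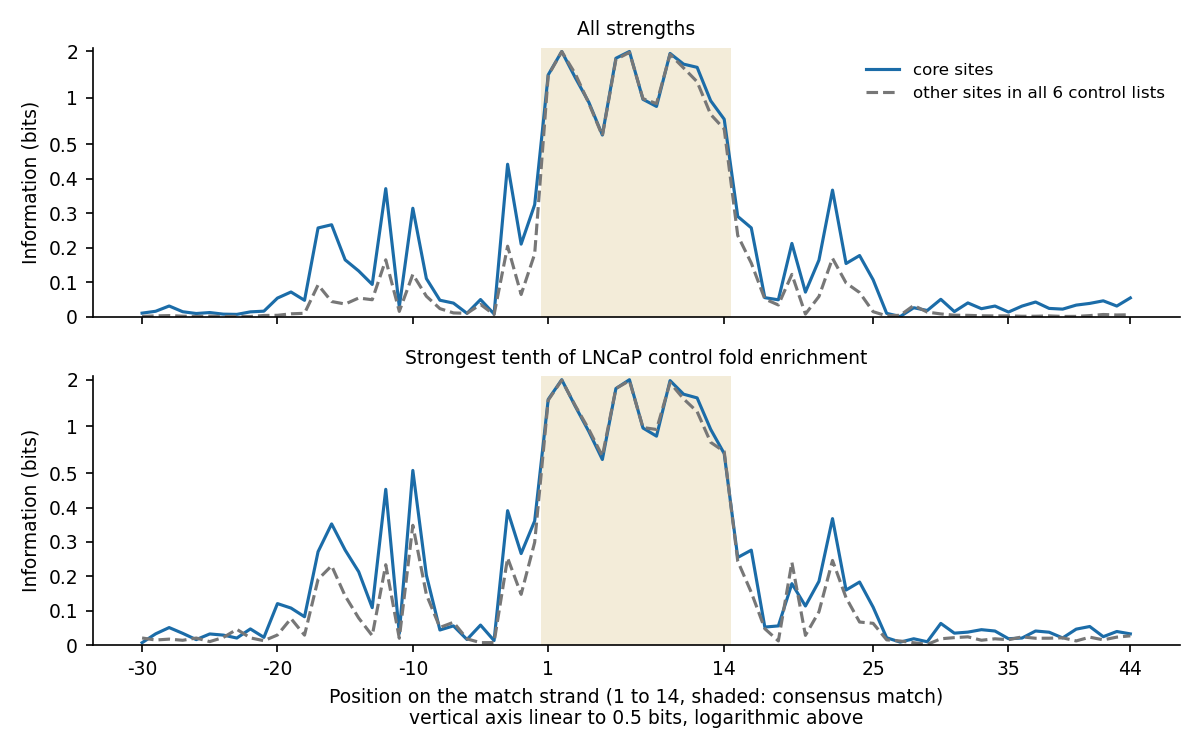
Information content in bits at each position of matches with at most 1 mismatch, from 30 bases before to 30 bases after the consensus (shaded, positions 1 to 14), for core sites and for the other sites in all 6 control lists, at all strengths (top) and in the strongest of 10 groups (bottom); the vertical axis is linear to 0.5 bits and logarithmic above. The core line lies above the other line at most positions from -20 to -8, where the sums were 1.961 and 0.684 bits at all strengths.

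Most core sites were far from promoters and more often outside genes than other shared sites. Intergenic positions held 49.9% of core sites (564 of 1130) and 33.1% of the other sites in all 6 control lists, introns 38.4% and 52.1%, and coding exons 0.531% and 1.59%. Within 1000 bp of a coding gene start lay 56 core sites, 4.96% (3.84 to 6.38%), close to the 5.15% of the others. The median distance to the nearest coding gene start was 29004 bp, beside 30381 bp. In the strongest group the intergenic shares were 50.9% and 34.1%, beside 42.3% and 34.02% in the sixth. Sites in 11 of 12 lists were intergenic in 45.3%.

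CTCF borders at imprinted and HOX clusters are textbook cases, and some of these clusters held core sites. Of 20 imprinted genes, 15 had an LNCaP control site within 10000 bp of the gene and 3 had a core site, beside 770 of all 20090 coding genes (3.83%). All 3 lay on chromosome 11: a site over IGF2 (a fetal growth factor) and INS-IGF2 at chr11:2172555-2173705, one in an intron of KCNQ1 (a potassium channel) at chr11:2553842-2554378 and one 2797 bp from CDKN1C (a cell cycle inhibitor) at chr11:2909590-2910067. Their mean LNCaP control fold enrichments were 28.6, 28.5 and 29.3. The CDKN1C site held 27.3 and 31.2 in LNCaP with control siRNA and, with CTCF siRNA, 9.53 and 13.9, the KCNQ1 site held 26.5 and 30.6, then 10.1 and 20.7, and the IGF2 site 26.8 and 30.5, then 14.8 and 27.2. At the KCNQ1 and CDKN1C sites the LNCaP treatments did not overlap, and at the IGF2 site they did. Lower values were the rule in LNCaP, where 41 and 119 of 1130 core sites were higher after CTCF siRNA. Overlap was not counted over all core sites, so this does not set these sites apart. In standard IMR90 the CDKN1C site held 27.9 and 33.95 with control siRNA and 30.3 and 27.2 with CTCF siRNA, which overlapped. The IGF2 site had 3 mismatches and the CDKN1C site none.

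HOX genes, which set positional identity along the body axis, lay within 10000 bp of a core site at 11 of 39 genes (28.2%), beside 3.83% of all coding genes. The 11 came from 4 sites, as packed genes share a site, such as HOXA3, HOXA7, HOXA9 and HOXA10. The share thus counts genes and not sites. Of the 39 genes, 31 had an LNCaP control site in that distance, beside 13085 of all 20090 coding genes. The site nearest to HOXA7, at chr7:27200589-27200971, had no mismatch and held 25.1 and 21.2 in LNCaP with control siRNA and, with CTCF siRNA, 17.7 and 14.03. In standard IMR90 it held 24.76 and 26.2, then 37.8 and 31.4, and in the low-cell libraries 25.1 and 14.4, then 24.1 and 7.12. An H3K4me3 region covered it in all 4 LNCaP libraries and an H3K27ac region in none, and the same was so of the site in an intron of HOXB7 at chr17:46695931-46696486. The sites at HOXC8 (chr12:54399639-54400082) and in the UTR of HOXA13 (chr7:27235795-27236130) had 3 mismatches, mean LNCaP control fold enrichments of 14.996 and 15.7, and no histone region. The HOXA13 site had lower values after CTCF siRNA in each of the 6 pairs of libraries with the same replicate number, from 17.4 and 14.1 to 7.95 and 7.23 in LNCaP and from 15.8 and 14.3 to 10.7 and 10.97 in standard IMR90.

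The kallikrein cluster, which encodes prostate proteases and prostate-specific antigen, had no core site. Between KLK15 and KLK14 lay 5 LNCaP control sites. As 3.39% of all LNCaP control sites were core, the lack of a core site among 5 says little about the cluster. The sites at chr19:51425322-51425871 and chr19:51433065-51433464 were in 10 of the 12 lists each and lacked a peak only in the 2 low-cell CTCF siRNA lists, with mean LNCaP control fold enrichments of 12.6 and 19.01. The other 3 were in 4, 8 and 6 lists. Of 14 genes for CTCF, cohesin and their partners, 11 had an LNCaP control site within 10000 bp and none had a core site, beside 13085 and 770 of all 20090 coding genes.

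Core sites were spread thinly, and those within 100 kb of each other were more often divergent than convergent. The median distance between neighbouring core sites was 993833 bp (quartiles 353358 and 2553280 bp). Chains with gaps under 50000 bp numbered 73 and 5 of them held 3 sites. Those 5, named after their values were seen, lay nearest to LAPTM5, S1PR1 and CHIT1 on chromosome 1 and to CALCOCO1 and MYL2 on chromosome 12.

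Of 963 neighbouring pairs with a match at both sites, 26.9% were convergent, with the matches pointing at each other, 26.7% divergent and 46.4% in tandem, beside 25.98%, 26.5% and 47.5% among the other sites in all 6 control lists. Under 100 kb apart the balance was different: 12 of 93 core pairs were convergent, 12.9% (7.54 to 21.2%), and 43 divergent, 46.2% (36.5 to 56.3%). Among pairs of the other group at such distances 19.8% were convergent and 30.4% divergent. From 100 kb to 1 Mb the core shares were 29.02% convergent and 25.9% divergent, and above 1 Mb 27.9% and 23.6%. Without low-cell CTCF siRNA replicate 2, 110 of 271 close pairs (40.6%) were divergent and 41 (15.1%) convergent.

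The 3 closest divergent pairs, named after their values were seen, lay 2083 bp apart near PTGIS on chromosome 20, 2603 bp apart near MPPED1 on chromosome 22 and 2747 bp apart near LAPTM5 on chromosome 1. The LAPTM5 pair had no mismatch at either site, with mean LNCaP control fold enrichments of 40.5 and 22.5, and is shown as the clearest case, each sequence on the strand of its own match with the match in capitals.
LAPTM5 left (in the site chr1:31252323-31252840, minus): ggagttccccagatggCCAGCAGGGGGCGC
LAPTM5 right (in the site chr1:31254958-31255568, plus): cagtgttcctgagtagCCACCAGAGGGCGC

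The chromosomes differed in their share of core sites. It was highest on chromosome 20, where 57 of 897 LNCaP control sites were core, 6.35% (4.94 to 8.14%), followed by chromosome 17 with 4.81%. It was lowest on the X chromosome, with 4 of 996, 0.402% (0.156 to 1.03%). The X chromosome had 361 sites in all 6 control lists, of which 1.11% were core, beside 7.61% in the genome. Chromosomes 18 and 4 followed with 1.64% and 1.72%. The 4 X-linked core sites lay nearest to SCML1, NALF2, RLIM (a ubiquitin ligase that acts in X inactivation) and RBMX, with mean LNCaP control fold enrichments of 19.1, 14.3, 24.8 and 16.97. Without low-cell CTCF siRNA replicate 2 the X chromosome held 20 of 2075 sites.

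**Figure D4:**
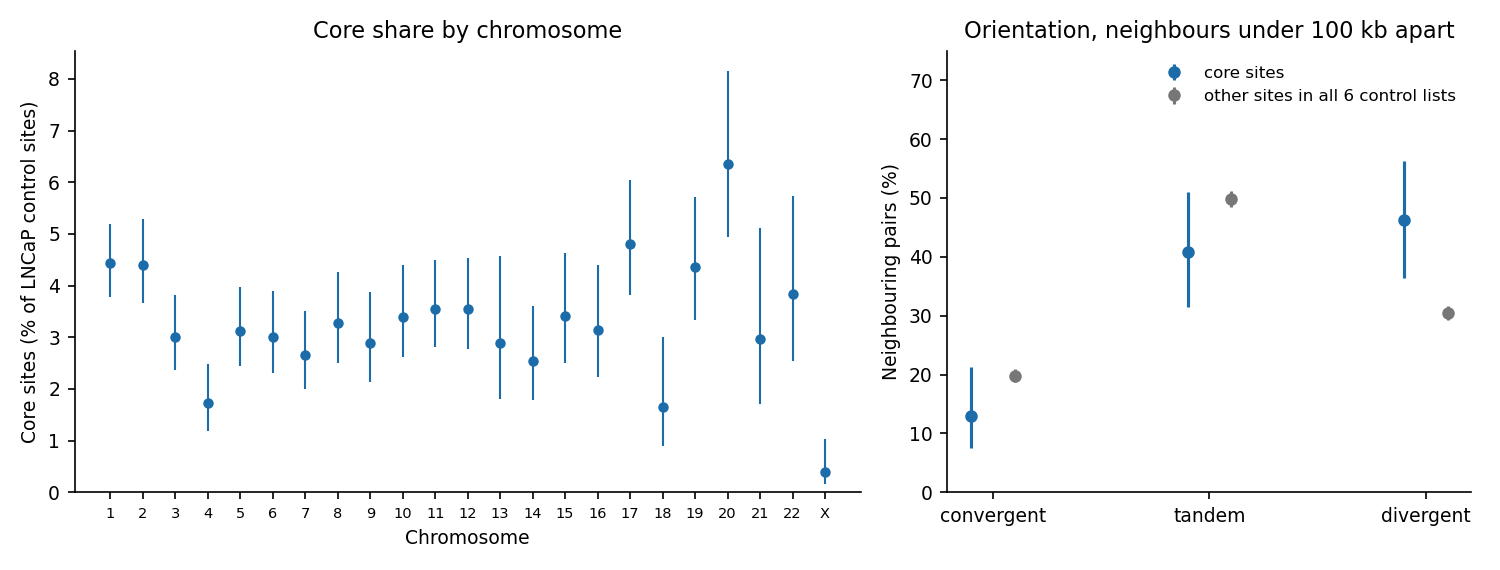
Left, core sites as a percentage of the LNCaP control sites of each chromosome; right, orientation of the consensus matches of neighbouring sites under 100 kb apart, for core sites (93 pairs) and the other sites in all 6 control lists (5471 pairs); lines are 95% Wilson intervals. The X chromosome stands lowest at 0.402%, and 46.2% of the close core pairs were divergent.

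H3K4me3 was commoner at core sites than at other shared CTCF sites, although few are promoters. An H3K4me3 region overlapped 19.2% and 28.3% of the core sites in the LNCaP control libraries and 25.4% and 38.7% after CTCF siRNA. At the other sites in all 6 control lists it was 13.4% and 17.1%, then 13.8% and 19.02%. The core share was higher than the other in each of the 4 libraries. It was nearer to that of the groups most like the core sites, though still higher in each library. Sites in 11 of 12 lists had 17.99% and 23.5%, then 21.2% and 30.4%, of which only the first lay within the core interval (17.01 to 21.6%). Other sites that kept a peak in both LNCaP CTCF siRNA lists had 15.8% and 20.9%, then 19.8% and 29.1%. In the strongest group, too, the core share was higher than that of the other sites in all 6 control lists, with 18.4% and 28.1% against 12.1% and 16.0% in control cells.

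The same order was seen away from genes. At core sites more than 5000 bp from any gene start, 774 in number, an H3K4me3 region was present at 13.4% and 22.6% with control siRNA and, with CTCF siRNA, 19.5% and 32.8%. At the 9687 other shared sites at such distances it was 6.91% and 10.4%, then 7.37% and 12.3%. The regions there were short in both groups, with medians of 1125 and 1100 bp at core sites in control cells and 1150 bp at the others in both. Of the 56 promoter sites 42 and 44 carried the mark with control siRNA, and 43 and 46 with CTCF siRNA.

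From control to CTCF siRNA, the share of core sites with H3K4me3 went from 23.8% ± 6.45 to 32.0% ± 9.39 (mean ± SD, n = 2 libraries each), a difference of 8.27 percentage points that was within the spread between replicates (two-sided exact permutation test, p = 0.667, smallest possible 0.333). The difference at the other sites in all 6 control lists was 1.14 points (p = 0.667 by the same exact permutation test). At the other sites that kept a peak in both LNCaP CTCF siRNA lists it was 6.12 points, and at sites in 11 of 12 lists 5.07 points, nearer to the core value. The length of the lists moved with these shares, since they held 36492 and 48462 regions with control siRNA and, with CTCF siRNA, 41107 and 59774. With every list shortened to its first 36492 regions by score, the core shares were 19.2% and 22.9% with control siRNA and, with CTCF siRNA, 23.9% and 27.9%, which did not overlap, a difference of 4.82 points (exact permutation p = 0.333). At the other shared sites the shortened lists gave 13.4% and 14.9%, then 13.2% and 15.4%, a difference of 0.120 points (exact permutation p = 1). Whether the change differed between the groups of sites was not tested. The full-list difference was 1.64 points without CTCF siRNA replicate 2 and 14.9 points without CTCF siRNA replicate 1, and 3.72 and 12.8 points without control replicates 1 and 2.

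**Figure D5:**
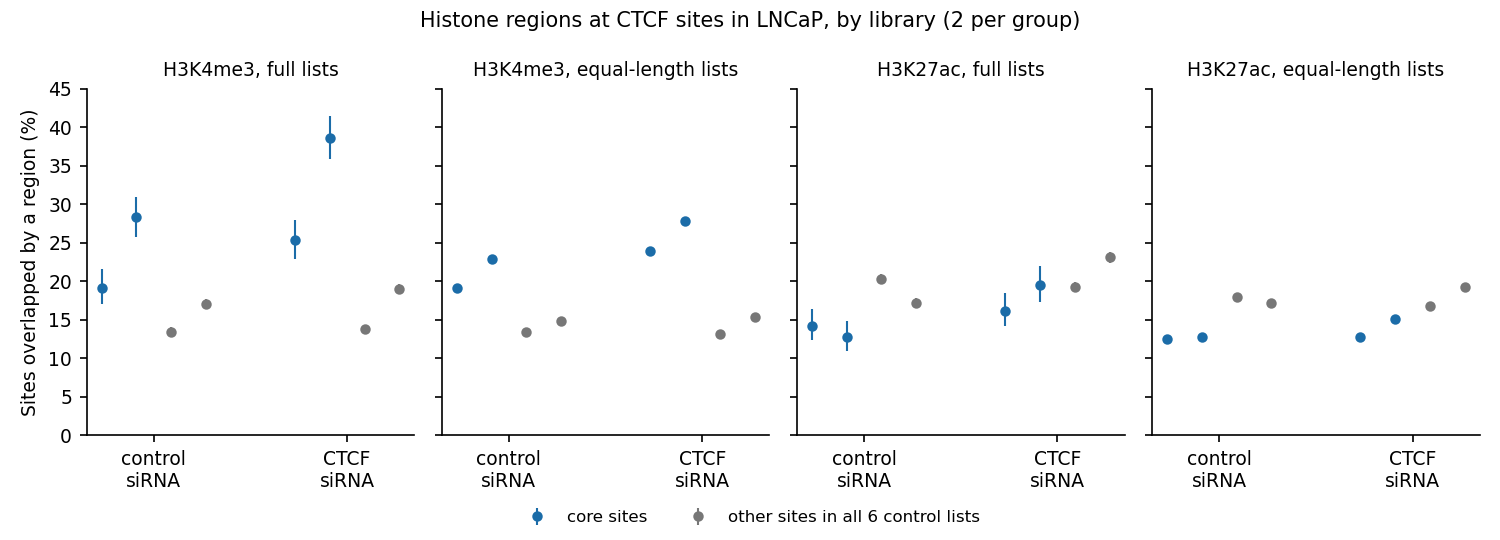
Percentage of core sites (blue) and of the other sites in all 6 control lists (grey) overlapped by an H3K4me3 or H3K27ac region in each LNCaP library, with the full region lists and with lists shortened to equal length; lines, drawn for the full lists, are 95% Wilson intervals. Core sites stood above the other sites for H3K4me3 in all 4 libraries, up to 38.7% against 19.02%, and below them for H3K27ac with shortened lists.

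Site by site, 31 core sites (2.74%) had an H3K4me3 region in both CTCF siRNA libraries and neither control library, beside 0.95% of all LNCaP control sites. Only 3 (0.265%) showed the reverse, beside 0.5%. Another 189 core sites (16.7%) had the region in all 4 libraries and 645 (57.1%) in none, beside 11.3% and 78.0% of all LNCaP control sites. The 4 of the 31 with the highest control CTCF values lay 6765 bp from SERPINA9, 9978 bp from PLA2G4D (a cytosolic phospholipase), 26337 bp from CTTNBP2NL and 23613 bp from SRRM3, with mean LNCaP control CTCF fold enrichments of 47.8, 39.7, 37.4 and 34.5. Of the 31 sites, 22 were more than 5000 bp from any gene start, as were 774 of all 1130 core sites. The other 1961 sites that kept CTCF in LNCaP had a share of 2.86%.

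H3K27ac ran the other way beside the other sites in all 6 control lists, less clearly away from gene starts. A region overlapped 14.2% and 12.7% of the core sites with control siRNA and, with CTCF siRNA, 16.2% and 19.6%, beside 20.3% and 17.2%, then 19.3% and 23.1%, at the other sites in all 6 control lists. The core share was lower in each of the 4 libraries. More than 5000 bp from any gene start the 2 groups were closer. Core sites there had 10.9% and 9.56%, then 14.1% and 16.7%, and the others 14.9% and 11.7%, then 14.3% and 17.7%. Other sites that kept a peak in both LNCaP CTCF siRNA lists had 16.2% and 13.7%, then 19.2% and 23.8%. Their control shares lay within the core intervals (12.3 to 16.4% and 10.9 to 14.8%). From control to CTCF siRNA the core mean went from 13.5% ± 1.06 to 17.9% ± 2.38 (SD, n = 2 each), and the groups did not overlap (difference 4.38 points, two-sided exact permutation p = 0.333, the smallest possible). With lists of 69949 regions each, the core shares were 12.5% and 12.7%, then 12.7% and 15.1%, a difference of 1.33 points (exact permutation p = 0.667). Without CTCF siRNA replicate 2, which had the longest list with 98973 regions, the full-list difference was 2.70 points.

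Both CTCF siRNA libraries and neither control library had an H3K27ac region at 35 core sites (3.10%), beside 2.07% of all LNCaP control sites, and 9 showed the reverse (0.796%, beside 1.03%). The first share was higher in the groups most like the core sites, 4.49% at other sites that kept a peak in both LNCaP CTCF siRNA lists and 4.07% at sites in 11 of 12 lists, where the full-list differences were 6.55 and 5.11 points. The sites in this group for both marks lay 9978 bp from PLA2G4D (an intron at chr15:42376532-42377104), 15818 bp from MYL2 (chr12:111374697-111375287) and 73259 bp from KCNMA1 (chr10:79471151-79471698). The 35 were led in control CTCF strength by a site 22396 bp from BCL2A1, an apoptosis regulator, with a mean of 43.6. No H3K27ac region was called in any library at 839 core sites (74.2%), close to the 71.8% of all LNCaP control sites.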

How the data were processed

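ChIP-seq lists of 20 libraries were used, grouped by their labels. The authors aligned standard libraries to hg19 with Bowtie and low-cell libraries with BWA, removed duplicate reads, called CTCF peaks with MACS2 at an FDR of 0.05, and called histone regions with PeakRanger. An input library is not given in the sources used here. The deposited CTCF lists give a fold enrichment, which is a ratio not scaled between libraries, and p-values and q-values as −log10. The deposited histone regions carry a score of unstated meaning, used only to rank regions (lower first, then wider). Read depth is not in the lists and was not used to scale them, and a lost peak is one that fell under a threshold.

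Sites were built by an overlap of 1 bp, searched for the consensus in GRCh37 and annotated with GENCODE 44 (coordinates from 1). Python 3.11.15, numpy 2.4.6, pandas 2.3.3, scipy 1.17.1 and pysam 0.24.0 were used, and the steps were tested on simulated data. The members, lists and named sites (8 highest, 3 lowest, those near gene lists, 3 strongest in 11 lists) were chosen with earlier results of these data known. Wilson intervals cover counting error only. Alternatives covered overlap, q-value, lists required, mismatches, windows, list length, replicate block and each library left out.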

Additional observations from a re-analysis of the deposited data

Results flagged for a closer look

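The ratio of fold enrichment after CTCF siRNA to that with control siRNA of the same replicate number lay on opposite sides of 1 in LNCaP and standard IMR90. At the median core site it was 0.470 and 0.665 in LNCaP and 1.25 and 1.098 in standard IMR90. Core sites with a ratio above 1 numbered 41 and 119 of 1130 in LNCaP and 824 and 705 in IMR90. Under the standard protocol both LNCaP libraries thus lay below 1 and both IMR90 libraries above it, and the difference was not tested, as the rule used these values and fold enrichment is not scaled between libraries. At other sites of all 6 control lists that had both peaks, the median ratio was 0.403 and 0.380 in LNCaP and 0.736 and 0.697 in IMR90. The low-cell IMR90 libraries gave 1.06 and 0.589 at core sites, so the order did not hold for IMR90 as a whole. With 2 libraries a group, no search for single outlying libraries was made.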

How the results depend on the processing

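The number of core sites was 1130 with an overlap of 50% of the shorter interval, 936 with summits within 100 bp, 972 with a q-value of at most 0.001, 1143 without the standard IMR90 lists, 2872 without the low-cell lists and 3557 with a peak in either library. The matching shares of LNCaP control sites were 2.80% for summits, 2.93% for the q-value, 8.60% without the low-cell lists and 10.7% with either library. The consensus share was 74.3% with 1 mismatch, 33.0% with none and 91.3% in a window of 50 bp, and its excess over the other sites in all 6 control lists was 14.9 and 14.1 points with 1 and no mismatch. The promoter share was 14.5% within 5000 bp and 10.6% with starts of all genes, and the median spacing was 1159085 bp with the stricter q-value. Leaving out single libraries gave 1130 to 2075 core sites (2.44% to 6.22% of sites), consensus shares of 93.1% to 93.6% with an excess of 5.61 to 7.23 points, promoter shares of 4.14% to 5.29%, convergent shares of 26.2% to 27.2% and spacings of 595916 to 996411 bp. The upper counts came without low-cell CTCF siRNA replicate 2. For the histone marks, the difference between treatments ran from 1.64 to 14.9 points (H3K4me3) and 2.70 to 6.06 points (H3K27ac) with single libraries left out, and over the 2075 sites of 11 lists, chosen after the data were seen, it was 7.33 and 4.67 points. No direction was reversed. With 2 libraries a group the replicate numbers could not be shown to pair the samples, and with the replicate block the differences stayed at 8.27 and 4.38 points with a smallest possible exact permutation p of 0.5 in both. Causes of these movements were not tested beyond the fewer lists required.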

Other observations

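Within 1000 bp of a coding gene start lay 4.96% of core sites, beside 5.07% of all LNCaP control sites. Of all coding genes, 0.304% had a core site within 1000 bp of the start, and none of the gene families examined had one there. That share is so low that the lack of a core site in a list of this length says little about the family. Clustered protocadherins, whose promoter choice in neurons is known to depend on CTCF, had an LNCaP control site within 1000 bp of the start of 36 of 53 genes, but only 2 of these genes had a site in all 6 control lists and none had a core site, also within 10000 bp. Ribosomal protein genes had a control site at 18 of 80 starts and no core site there, and 3 had a core site within 10000 bp (3.75%, beside 3.83% of all coding genes). Zinc finger genes named ZNF had a core site within 10000 bp at 3 of 509 genes (0.589%) and olfactory receptor genes at none of 415. Any LNCaP control site lay in that distance at 213 and 73 of these genes, beside 13085 of all 20090 coding genes. Of all 20090 coding genes, 61 had a core site within 1000 bp of the start and 1834 an LNCaP control site.

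The consensus match lay close to the peak summit in most lists. The match was sought only within 100 bp of the mean LNCaP control summit, and the nearest of equally good matches was taken. The distances are thus partly set by the search, most directly in the LNCaP control lists. The median distance of summit to match at core sites was 16.5 to 20.5 bp in the 8 standard libraries, 27.5 to 28.5 bp in 3 low-cell libraries and 41.5 bp in low-cell CTCF siRNA replicate 2, where 58.6% of summits lay within 50 bp of the match, beside 73.3% to 98.9% in the others.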
